A study of Mus musculus with 49 samples.

Results

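Plasminogen activation and coagulation control were followed through 9 genes, Plau, Plaur, Plat, F3, Thbd, Procr, F2r, Tfpi and F13a1, which are 9 of the 43309 genes in the deposited table and were taken by their symbols. Plasmin, the protease that dissolves fibrin, is made from circulating plasminogen by urokinase and by tissue plasminogen activator. Clotting starts when tissue factor meets its plasma ligand and ends in thrombin, fibrin and its cross-linking, and the vessel wall holds it in check through thrombomodulin, the endothelial protein C receptor and tissue factor pathway inhibitor. In the kidney, tubules are known to make urokinase, and injury to tubules and peritubular capillaries is known to involve both systems.

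RNA was sequenced from whole kidneys of male C57BL/6NCrl mice after bilateral ischemia-reperfusion injury (IRI), with both renal pedicles clamped for 21 minutes at 10 to 12 weeks of age. The IRI groups were taken hours (IRI2h, IRI4h, IRI24h, IRI48h and IRI72h), days (IRI7d, IRI14d and IRI28d) or months (IRI6mN and IRI12m) after surgery. Sham surgery without clamping gave SHAM4h, SHAM24h and SHAM12m, and kidneys without surgery gave NORM3m, NORM9m and NORM15m, named by age in months. Each of the 16 groups held 3 kidneys, except IRI6mN with 4, for 49 libraries in all. The groups share strain and sex, no genetic modification is labelled, and whole kidneys mix all cell types, so that more cells of a type and more RNA per cell cannot be told apart. One label field of SHAM12m replicate 3 reads IRI, while its title, its description and its surgery field read sham, and it was taken as sham.

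Values are FPKM, fragments scaled for gene length and library depth, so that levels may be set beside each other between genes. Changes are log2 differences of FPKM + 0.1 between an IRI group and its sham group, with the standard error (SE) of a limma fit of all 49 libraries, and a gene is called where its adjusted p is under 0.05. IRI2h and IRI4h share SHAM4h as control, IRI24h to IRI28d share SHAM24h, and IRI6mN and IRI12m share SHAM12m, so changes at these times are not independent of each other. The depth to which libraries were scaled was 10520102 to 23499706 reads in IRI6mN and the NORM groups, 69601624 to 87885764 in IRI12m and SHAM12m, and 37869191 to 51805059 in the others. Depth set and condition cannot be told apart where IRI6mN is set against SHAM12m, where another IRI group or a sham group is set against a NORM group, where SHAM12m is set against SHAM24h, or where IRI6mN is set against another IRI group. Markers of the proximal tubule, the main cell type of the kidney cortex, were high in every group, and these 9 genes summed to a mean of 1201 FPKM in IRI24h, the lowest of the 16 groups, against 3845 FPKM in SHAM24h. The 5 injured tubule markers (Havcr1, Lcn2, Krt20, Vcam1 and Sox9) summed to a mean of 90.5 FPKM in NORM15m (12.0 to 154 FPKM). They summed to 35.4 FPKM in NORM9m, 74.5 FPKM in IRI12m, 47.5 FPKM in IRI6mN and 7.45 FPKM in SHAM12m. The older kidneys without surgery were thus not free of these markers, which limits them as a control for the months. Gene positions below are those of GENCODE M21 on GRCm38.

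Sequence upstream of the genes is shown first because 3 of the 4 genes that were higher by 4 hours have a window in the RefSeq promoter table (GRCm38.p6, 250 bases before to 50 after a start site), which matched 6 of the 9 genes with 8 windows. The AP-1 motif, TGANTCA on either strand, was in at least one window of 4 of the 6 genes, Plaur, F3, Procr and F2r, and in none of the windows of Tfpi and F13a1. It was in 7.81% of all 32851 windows. Capitals mark the AP-1 letters in the windows of Plaur (chr7:24462233-24462532, plus strand), F3 (chr3:121723287-121723586, plus strand) and Procr (chr2:155750967-155751266, plus strand), written 5′ to 3′.
Plaur: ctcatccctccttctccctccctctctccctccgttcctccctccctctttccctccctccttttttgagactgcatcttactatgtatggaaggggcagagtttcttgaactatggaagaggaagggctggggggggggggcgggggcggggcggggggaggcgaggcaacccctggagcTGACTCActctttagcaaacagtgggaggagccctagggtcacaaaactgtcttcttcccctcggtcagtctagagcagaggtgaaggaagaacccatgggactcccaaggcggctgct
F3: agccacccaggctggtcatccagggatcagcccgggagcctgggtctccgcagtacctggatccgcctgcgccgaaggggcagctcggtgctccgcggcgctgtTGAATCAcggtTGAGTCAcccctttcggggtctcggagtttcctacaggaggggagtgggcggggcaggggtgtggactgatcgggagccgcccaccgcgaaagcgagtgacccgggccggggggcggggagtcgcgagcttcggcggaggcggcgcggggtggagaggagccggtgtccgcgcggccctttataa
Procr: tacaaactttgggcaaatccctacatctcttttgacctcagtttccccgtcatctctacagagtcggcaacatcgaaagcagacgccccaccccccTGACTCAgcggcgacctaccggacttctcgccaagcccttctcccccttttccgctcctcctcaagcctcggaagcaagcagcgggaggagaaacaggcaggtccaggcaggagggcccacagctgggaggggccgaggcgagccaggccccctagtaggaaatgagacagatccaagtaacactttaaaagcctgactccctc
The match lies 69 bases before the start site in Plaur and 154 bases before it in Procr, while F3 has matches 146 and 135 bases before it and F2r has TGAGTCA 204 bases before it (chr13:95618417-95618716, minus strand). The NF-kappaB motif GGGRNNYYCC (R for A or G, Y for C or T), in 8.46% of all windows, and the EGR1 motif GCGTGGGNG, in 1.90%, matched 0 of the 6 genes on either strand. Only these exact patterns were searched, so sites of these factors with other letters would be missed. A match is a run of letters and was not tested as a binding site.

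The 9 genes fell into an early set that was higher at 4 hours (F3, Plaur, Procr and Thbd), a set that was higher from 24 hours (F2r, F13a1, Plat and Tfpi) and Plau, the most abundant. Plau was not called higher than its own sham group at any of the 10 times. With the 9 sham kidneys pooled as control it was called higher at 24 hours, 72 hours and 7 days. Of the 9, 0 were called at 2 hours, with 1 (F3) at an unadjusted p under 0.05, while 22.1% of the 14895 genes tested were higher and 17.9% were lower. At 4 hours 4 of 9 were higher, against 17.7% of genes, and from 24 hours to 28 days 8 of 9 were higher at each of the 6 times, against 32.5%, 28.5%, 25.4%, 33.8%, 30.9% and 22.3% of genes in order of time. At 28 days 1 gene, Plau, was lower, against 9.86% of genes. In IRI6mN 4 of 9 were higher, against 30.4% of genes, and in IRI12m 2 of 9, against 8.44%. F13a1, which is in each of these counts of higher genes from 24 hours on, passed the filter only through IRI kidneys. The median log2 change of the 9 genes was 2.51 at 24 hours, 1.18 at 28 days and 0.45 at 12 months, while the medians over all genes tested were 0.18, 0.09 and 0.05.

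**Figure D1:**
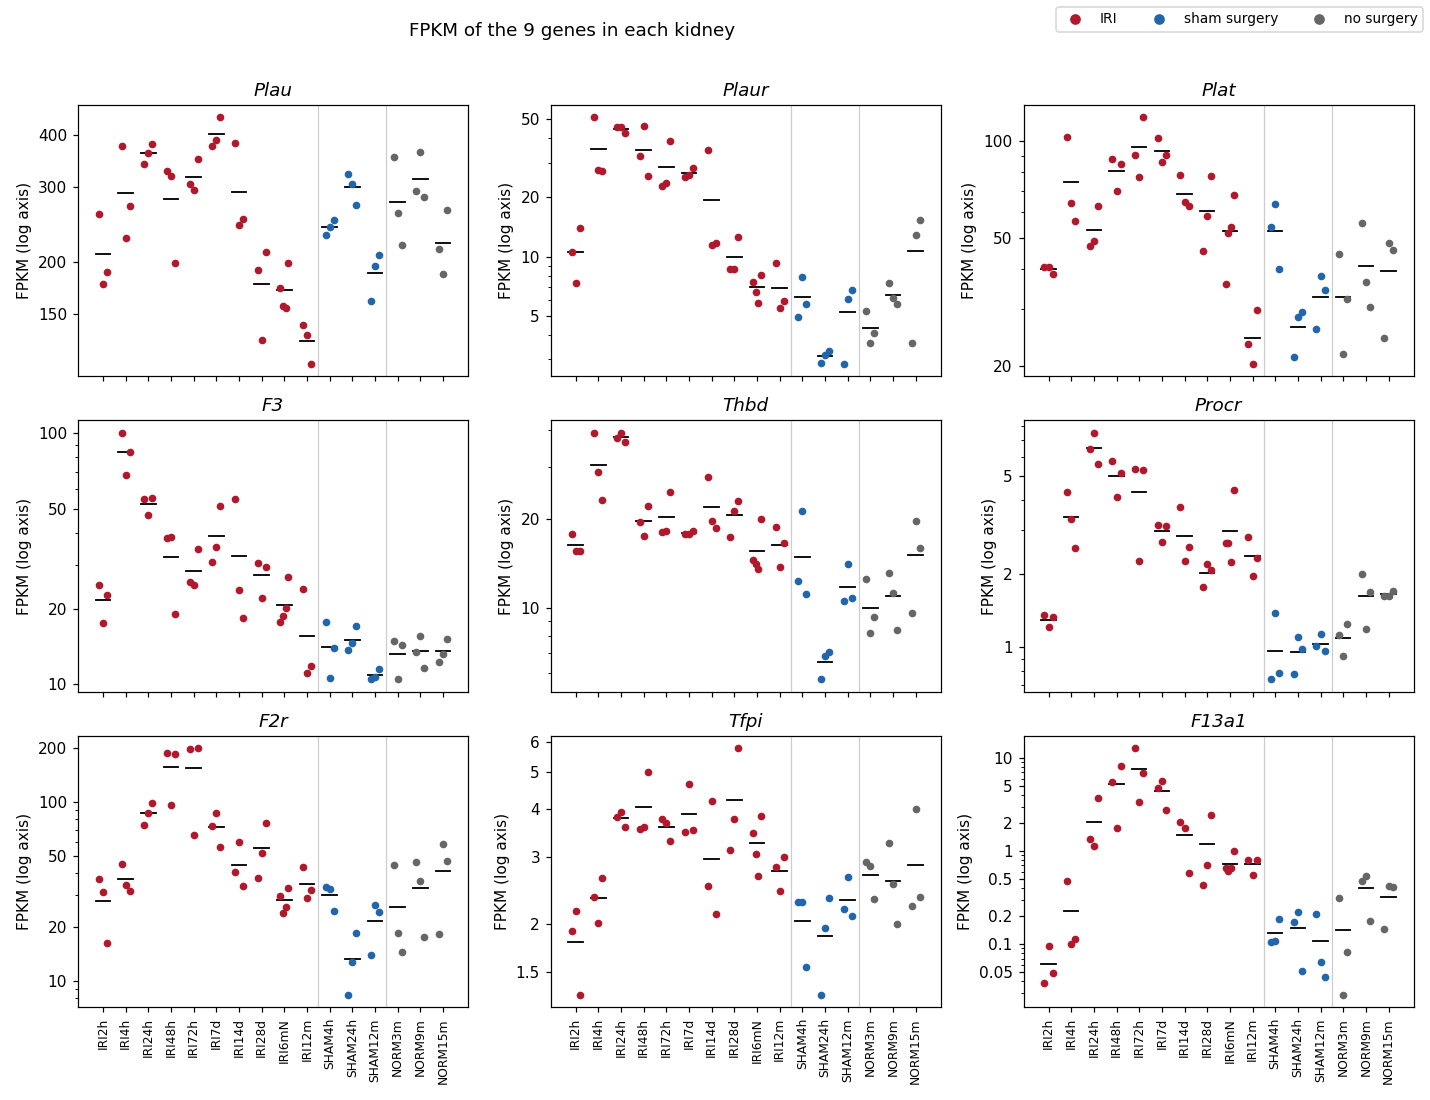
FPKM (log axis) of each of the 9 genes in each of the 49 kidneys, by group, with IRI groups in order of time, then sham, then no surgery, and a black line at the group mean. F3 was highest in IRI4h, at 68.0 to 100.3 FPKM, while F2r and F13a1 had their highest means in IRI48h and IRI72h, and Plau lay between 114 and 441 FPKM throughout.

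Plau (chr14:20836660-20843385, plus strand), which encodes urokinase, was at 376, 389.8 and 441 FPKM in IRI7d, its highest group, against 323, 306 and 273 FPKM in SHAM24h. The groups did not overlap, yet the change of 0.42 (SE 0.20) did not pass limma's adjusted test (adjusted p = 0.0782). It passed in a fit of these 2 groups alone, with the 9 sham kidneys pooled as control (0.75) and with NORM3m as the control (0.56). At 24 hours every IRI kidney was also above every SHAM24h kidney, and the change of 0.27 did not pass (adjusted p = 0.279, limma). That change passed in a fit of the 2 groups alone (adjusted p = 0.017, limma). It passed with the 9 sham kidneys (0.60, adjusted p = 0.0017, limma) and not with NORM3m (0.41, adjusted p = 0.0791, limma). At 72 hours Plau passed with the 9 sham kidneys (0.41, adjusted p = 0.0317, limma). In IRI28d Plau was at 190.5, 129.98 and 211 FPKM, below every SHAM24h kidney, and the change was −0.79 (SE 0.20, limma adjusted p = 0.00205). It was also lower in IRI28d than in IRI14d, with a change of −0.72 (adjusted p = 0.01, limma), a contrast in which 6.77% of genes were lower.

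Plau was lowest in IRI12m, at 141, 134 and 114 FPKM, a group that did not overlap IRI6mN, the next in order, at 156 to 198 FPKM. SHAM12m kidneys were at 161, 195 and 207 FPKM and NORM15m kidneys at 214, 186 and 265 FPKM, and all 3 IRI12m kidneys lay below all of these. Against SHAM12m the change of −0.53 (SE 0.20) had a limma adjusted p of 0.101, and against NORM15m the change was −0.76 (adjusted p = 0.00346, limma, 10.5% of genes lower). IRI6mN was likewise below NORM9m, a group of the same depth set, with a change of −0.88 (SE 0.19, limma adjusted p = 0.00193), where 2.07% of genes were lower. SHAM12m was also below SHAM24h, across depth sets, with a change of −0.68 (adjusted p = 0.0261, limma, 5.69% of genes lower).

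Plaur (chr7:24462484-24475968, plus strand) encodes the urokinase receptor, which holds the protease at the cell surface. It was at 51.2, 27.7 and 27.4 FPKM in IRI4h, against 4.92, 7.91 and 5.76 FPKM in SHAM4h, and at 45.9, 45.7 and 42.5 FPKM in IRI24h, against 2.87, 3.16 and 3.32 FPKM in SHAM24h. No kidney overlapped its sham group at either time. The change was 2.46 (SE 0.38, limma adjusted p = 5.36e-06) at 4 hours and 3.80 (SE 0.38, limma adjusted p = 3.52e-10) at 24 hours, where Plaur had the largest change of the 9 genes. IRI14d split into 1 kidney at 35.1 FPKM and a pair at 11.5 and 11.7 FPKM. By 28 days it was at 8.67, 8.65 and 12.5 FPKM, still above every SHAM24h kidney (change 1.62, adjusted p = 0.000942, limma). In IRI6mN and IRI12m it overlapped SHAM12m, with changes of 0.49 and 0.45 that did not pass (limma adjusted p = 0.252 and 0.662), and 2 of the 3 NORM15m kidneys, at 12.9 and 15.4 FPKM, exceeded every kidney of both IRI groups.

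Plat (chr8:22757727-22782844, plus strand) encodes tissue plasminogen activator, the activator known for its action on fibrin. Its kidneys were at 90.7, 77.4 and 119 FPKM in IRI72h, the highest group, against 21.4, 28.3 and 29.5 FPKM in SHAM24h, with a change of 1.84 (SE 0.27, limma adjusted p = 5.41e-07). At 4 hours the IRI kidneys, at 103, 64.2 and 56.4 FPKM, overlapped the SHAM4h kidneys at 54.1, 63.9 and 39.9 FPKM, and the change of 0.48 did not pass (adjusted p = 0.185, limma). SHAM4h was itself above both NORM3m, by 0.71 (adjusted p = 0.0498, limma, 6.81% of genes higher), and SHAM24h. Against the 9 sham kidneys pooled, the 4-hour change was 1.03 (adjusted p = 0.000319, limma) and with NORM3m it was 1.19 (adjusted p = 0.000559, limma).

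In the months Plat differed between the IRI groups, at 36.1, 51.7, 54.0 and 67.9 FPKM in IRI6mN and at 23.3, 20.3 and 29.8 FPKM in IRI12m, with no overlap. IRI12m was lower than IRI6mN, with a change of −1.08 (SE 0.25, limma adjusted p = 0.000893, 16.2% of genes lower), across depth sets. The IRI6mN change against SHAM12m, 0.66 (adjusted p = 0.0268, limma), did not pass without SHAM12m replicate 1 (0.50), IRI6mN replicate 3 (0.63) or IRI6mN replicate 4 (0.52), nor against NORM9m (0.37, adjusted p = 0.423, limma).

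F3 (chr3:121723537-121735048, plus strand) encodes tissue factor, the cell-surface starter of coagulation, and was the first of the 9 genes to reach its highest level. At 2 hours it was at 25.0, 17.6 and 22.8 FPKM in IRI2h, against 17.8, 10.6 and 13.9 FPKM in SHAM4h, which overlapped by a small margin (change 0.64, limma adjusted p = 0.0742). At 4 hours it was at 100.3, 68.0 and 84.0 FPKM in IRI4h, far above the same sham kidneys, with a change of 2.58 (SE 0.29, limma adjusted p = 1.01e-08). IRI4h did not overlap IRI24h, the next group in order, at 54.8, 47.0 and 55.2 FPKM, and F3 was the only one of the 9 genes whose top group stood clear of the next.

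F3 was lower at later times, while its IRI kidneys stayed above sham up to IRI6mN. The decline was not steady, with means of 28.3 FPKM in IRI72h and 39.1 FPKM in IRI7d. IRI24h was lower than IRI4h, with a change of −0.67 (limma adjusted p = 0.0457, 13.7% of genes lower), and IRI48h lower than IRI24h, with a change of −0.78 (limma adjusted p = 0.0442, 17.1% of genes lower). The change against SHAM24h was 1.79 at 24 hours and between 0.84 and 1.34 at the 5 times from 48 hours to 28 days. Single kidneys stood out, with IRI14d replicate 1, which also stood out in Plaur, at 54.7 FPKM beside 23.8 and 18.4 FPKM. In IRI48h 1 kidney was at 19.1 FPKM beside 38.4 and 38.5 FPKM. The call at 72 hours was lost without IRI72h replicate 3 (adjusted p = 0.0597, limma), that at 14 days without IRI14d replicate 1 (0.174), and that at 28 days without either of SHAM24h replicates 1 and 2 or IRI28d replicates 1 and 3 (0.0594 to 0.0811). IRI6mN kidneys were at 17.7, 18.6, 20.1 and 26.7 FPKM, against 10.5, 10.7 and 11.5 FPKM in SHAM12m (change 0.91, adjusted p = 0.00533, limma), a call that did not hold against NORM9m (0.60, adjusted p = 0.179, limma). IRI12m kidneys, at 24.0, 11.1 and 11.8 FPKM, overlapped SHAM12m, and the change of 0.43 did not pass (adjusted p = 0.517, limma).

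**Figure D2:**
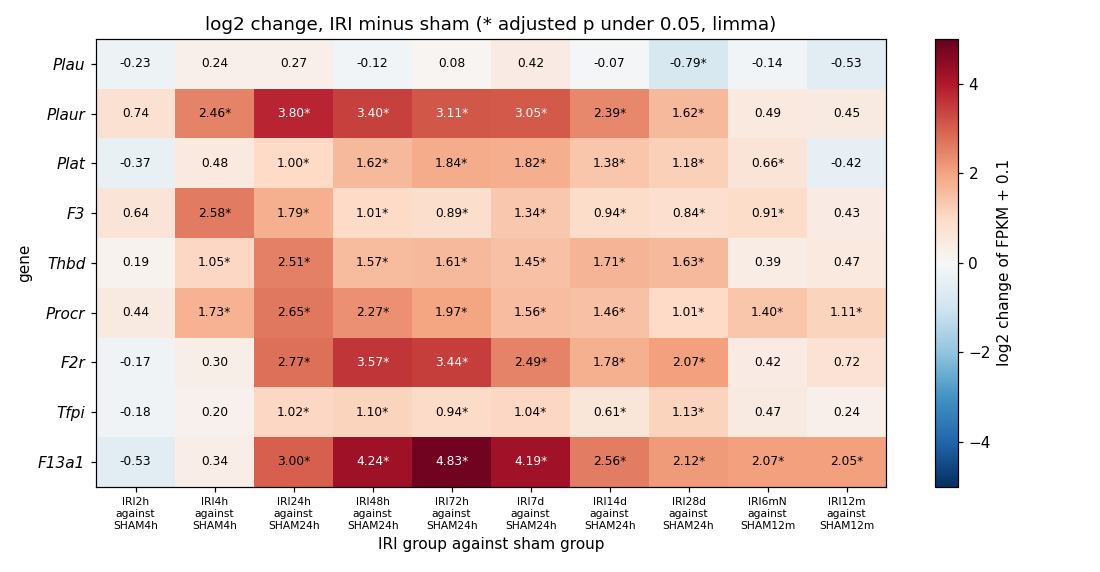
log2 change of FPKM + 0.1 of the 9 genes (rows) in the 10 IRI groups against their sham groups (columns), with * where limma's adjusted p was under 0.05. The early set is marked from 4 hours, 8 of the 9 rows are marked from 24 hours to 28 days, Plau is marked at 28 days only and with a negative value, and 2 rows, Procr and F13a1, are marked at 12 months.

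Thbd (chr2:148404466-148408188, minus strand) encodes thrombomodulin, which turns thrombin into an activator of protein C. It was at 39.0, 28.7 and 23.1 FPKM in IRI4h, against 12.3, 21.2 and 11.2 FPKM in SHAM4h, and at 37.5, 39.1 and 36.4 FPKM in IRI24h, against 5.71, 6.85 and 7.08 FPKM in SHAM24h. The IRI and sham kidneys were apart at both times, by a small margin at 4 hours. The changes were 1.05 (SE 0.23, limma adjusted p = 0.000520) and 2.51 (SE 0.23, limma adjusted p = 3.26e-11). SHAM24h was lower than SHAM4h, with a change of −1.12 (adjusted p = 0.000174, limma, 6.57% of genes lower), while IRI24h and IRI4h kidneys overlapped, with a change of 0.35 that did not pass (adjusted p = 0.19, limma). SHAM12m was above SHAM24h, across depth sets, by 0.83 (adjusted p = 0.0162, limma, 2.71% of genes higher). IRI48h was lower than IRI24h, with a change of −0.94 (adjusted p = 0.00208, limma) and the 5 groups from IRI48h to IRI28d had means between 17.9 and 21.9 FPKM.

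Procr (chr2:155751117-155755471, plus strand) encodes the endothelial protein C receptor, which presents protein C to thrombomodulin-bound thrombin, and it was the only one of the 9 genes whose IRI kidneys lay above every sham kidney at 9 of the 10 times. IRI24h kidneys were at 6.45, 7.50 and 5.60 FPKM, against 0.778, 1.10 and 0.983 FPKM in SHAM24h, a change of 2.65 (SE 0.25, limma adjusted p = 1.38e-10). IRI12m kidneys were at 2.81, 1.95 and 2.32 FPKM, against 1.01, 1.13 and 0.964 FPKM in SHAM12m, a change of 1.11 (SE 0.25, limma adjusted p = 0.00351). Levels in the older kidneys without surgery, 1.62, 1.61 and 1.70 FPKM in NORM15m, lay between these groups, and IRI12m did not pass against them (0.48, adjusted p = 0.147, limma). NORM15m kidneys also held more of the injured tubule markers than SHAM12m kidneys. In IRI6mN Procr was at 2.67, 2.67, 2.22 and 4.37 FPKM, higher than SHAM12m by 1.40 (adjusted p = 1.03e-05, limma) and higher than NORM9m by 0.83 (adjusted p = 0.0243, limma, 6.25% of genes higher).

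Tfpi (chr2:84432855-84476775, minus strand) encodes tissue factor pathway inhibitor, the brake on the tissue factor complex. Its highest group mean, in IRI28d, was 2.35 times its lowest, in IRI2h, the smallest such ratio of the 8 genes that were higher. It was at 3.82, 3.93 and 3.60 FPKM in IRI24h, against 1.30, 1.95 and 2.34 FPKM in SHAM24h, a change of 1.02 (SE 0.24, limma adjusted p = 0.000607). From 24 hours to 28 days its changes were between 0.61 and 1.13. At 14 days the IRI kidneys, at 2.52, 4.22 and 2.13 FPKM, overlapped sham, and the call (adjusted p = 0.0323, limma) was lost without SHAM24h replicate 1 (0.39) or IRI14d replicate 2 (0.34). Kidneys of NORM3m were at 2.92, 2.84 and 2.32 FPKM, so that 2 lay above every SHAM24h kidney, and with them as the control 1 of the 6 calls, that at 28 days, was kept (0.59, adjusted p = 0.0458, limma).

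F2r (chr13:95601803-95618487, minus strand) encodes the thrombin receptor PAR1. It was at 187, 96.2 and 186 FPKM in IRI48h and at 198, 65.2 and 199 FPKM in IRI72h, against 8.33, 12.8 and 18.4 FPKM in SHAM24h. In each IRI group 1 kidney, replicate 2, was far below the other 2 and still above every sham kidney. The changes were 3.57 (SE 0.43, limma adjusted p = 1.30e-08) and 3.44 (SE 0.43, limma adjusted p = 3.62e-08). At 4 hours the IRI kidneys, at 45.2, 34.1 and 31.9 FPKM, overlapped SHAM4h at 33.3, 32.4 and 24.4 FPKM (change 0.30, adjusted p = 0.651, limma). Against the 9 sham kidneys pooled F2r passed at 4 hours (0.88, adjusted p = 0.0492, limma), and against NORM3m it did not (0.68, adjusted p = 0.217, limma). IRI24h was higher than IRI4h by 1.23 (adjusted p = 0.0138, limma, 42.9% of genes higher). In IRI6mN, at 23.9 to 32.8 FPKM, and IRI12m, at 29.0 to 43.2 FPKM, F2r did not pass against SHAM12m.

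F13a1 (chr13:36867178-37050244, minus strand) encodes the catalytic A subunit of factor XIII, the transglutaminase that cross-links fibrin, and is known from platelets and macrophages. It was low in control kidneys, with 2 to 70 reads per library, and at 7 to 17 reads in IRI2h. In IRI72h it was at 12.7, 3.35 and 6.91 FPKM (up to 2306 reads), against 0.173, 0.222 and 0.0519 FPKM in SHAM24h, a change of 4.83 (SE 0.57, limma adjusted p = 1.43e-08), the largest of the 9 genes at any time. With a pseudocount of 1 it was 2.76, below the 3.48 of Plaur at 24 hours. It was higher at 24 hours as well, at 1.35, 1.14 and 3.68 FPKM, by 3.00 (adjusted p = 4.08e-05, limma). Since the fold depends on the 0.1 FPKM added, these values understate the ratio of the means. IRI14d was lower than IRI7d, with a change of −1.63 (adjusted p = 0.0341, limma, 15.4% of genes lower). The library kit does not mark strand, and the GENCODE M21 gene spans of Gm30489 and Gm49144 overlap that of F13a1 on the other strand. Reads could not be told apart where exons of both strands overlap, which was not checked.

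F13a1 stayed above sham late, at 0.653, 0.609, 0.656 and 1.00 FPKM in IRI6mN and 0.793, 0.555 and 0.806 FPKM in IRI12m, against 0.213, 0.0645 and 0.0441 FPKM in SHAM12m. The changes were 2.07 (SE 0.53, limma adjusted p = 0.00165) and 2.05 (SE 0.57, limma adjusted p = 0.0162). NORM9m kidneys were at 0.477, 0.544 and 0.178 FPKM and NORM15m kidneys at 0.144, 0.418 and 0.407 FPKM, and against them the changes were 0.80 and 1.02, which did not pass (adjusted p = 0.414 and 0.175, limma). The 12-month call was also lost on leaving out any of SHAM12m replicates 2 and 3 or IRI12m replicates 1 and 3 (adjusted p = 0.0651 to 0.0898, limma).

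The choice of control mattered for Plat, Thbd and F2r, which were lower in SHAM24h than in SHAM4h, and for Tfpi, which lost calls. It mattered for Plau as well, which gained calls as given above. SHAM24h, the control for the 6 times from 24 hours to 28 days, was lower than SHAM4h in Plat (−0.98), Thbd (−1.12) and F2r (−1.24), all past limma's adjusted test, against 6.57% of genes. With NORM3m as the control the 24-hour changes were 0.74 for Plat, 1.93 for Thbd and 1.91 for F2r, against 1.00, 2.51 and 2.77 with SHAM24h. That of Plaur was 3.35 with NORM3m, against 3.80 with SHAM24h. Plat, Thbd, F2r and Tfpi kept their calls at the 6 times except F2r at 14 days (0.92, adjusted p = 0.0605, limma) and Tfpi at the 5 times from 24 hours to 14 days. Against NORM3m, 0 of 9 genes were called in SHAM24h, with 2 at an unadjusted p under 0.05 and 20.9% of genes called. In NORM9m and NORM15m 0 of 9 were called against NORM3m, with 0 and 3 at an unadjusted p under 0.05, where 13.5% and 8.91% of genes were called. At 2 hours 3 genes, Plaur (1.24), Thbd (0.72) and F3 (0.71), were called with NORM3m as the control, and the same 3 with the pooled sham kidneys. The share of all genes called was not counted for these 2 controls, so the 3 genes cannot be set beside it. Against SHAM4h, 22.1% of genes were higher and 17.9% lower at this time. NORM3m is also of another depth set than IRI2h.

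**Figure D3:**
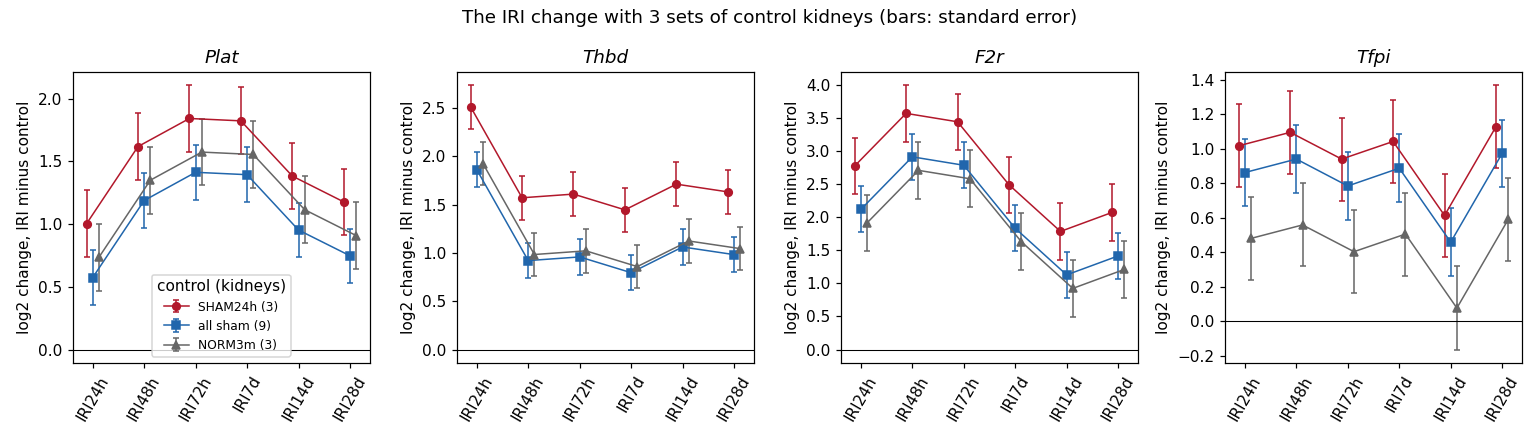
log2 change of Plat, Thbd, F2r and Tfpi from IRI24h to IRI28d with SHAM24h, all 9 sham kidneys or NORM3m as the control, with the standard error as bars. Changes of Plat, Thbd and F2r were above 0 with each control and largest with SHAM24h, while Tfpi against NORM3m lay between 0.08 and 0.59.

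The IRI effect itself differed between the times that have their own sham group. From 4 to 24 hours 5 of the 9 genes had a larger effect, Plaur, Thbd, Procr, F2r and F13a1, against 22.4% of genes, and for Plaur, Thbd and F2r the lower SHAM24h level is part of that difference. In Plaur SHAM24h lay below SHAM4h with a change of −0.94 (adjusted p = 0.0527, limma), and IRI24h against IRI4h did not pass (0.40, adjusted p = 0.383, limma). At 12 months the effect was lower than at 24 hours in 7 of 9 genes (11.7% of genes lower), with Tfpi and F13a1 not past the test. Compared with 4 hours it was lower in 2 of 9, Plaur and F3 (7.36% of genes lower).

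Consecutive IRI times were compared as well. IRI4h was higher than IRI2h in 5 of 9 genes (13.7% of genes higher), F3 by 1.94, Plaur by 1.72, Procr by 1.29, Thbd by 0.86 and Plat by 0.85. IRI24h was higher than IRI4h in 4 of 9 (42.9% of genes higher), a share near that of all genes, F13a1 by 2.70, F2r by 1.23, Procr by 0.95 and Tfpi by 0.68. Between IRI72h and IRI48h 0 of 9 were called, with 0 at an unadjusted p under 0.05 and 2.89% of genes called. Between IRI7d and IRI72h 0 were called, with 1 (F2r) at an unadjusted p under 0.05 and 25.7% of genes called. Between IRI6mN and IRI28d, across depth sets, 0 were called, with 2 (Procr and F2r) at an unadjusted p under 0.05 and 50.2% of genes called.

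Across the 16 group means of log2(FPKM + 0.1), which share libraries and control kidneys, Plau varied least like the rest, with Pearson r between 0.15 and 0.50 to the other 8 genes. The closest pairs were Plaur with Procr and F2r with F13a1, both at r = 0.89. The genes most like each member over the 16 groups were Tubb6 for Plaur (0.98), Pvr for F3 (0.95), Cldn25 for Thbd (0.89), Pdlim7 for Procr (0.93), Itgb3 and Diap3 for F2r (both 0.95) and Id3 for Plat (0.90). Tfpi was most like Pros1 (0.96), which encodes protein S, its known cofactor. F13a1 was most like 2810417H13Rik, Asf1b and E2f8 (all 0.97), and Plau had no match above 0.78 (Ext1).

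Beyond the 9 genes, 44 of 58 listed genes of fibrinolysis and coagulation were expressed enough to be tested. Of these, 17 were higher and 11 lower at 24 hours, against 32.5% and 15.4% of all genes. At 7 days 22 were higher and 7 lower, against 33.8% and 14.5% of all genes, and at 12 months 3 were higher and 1 lower, against 8.44% and 0.369%. Among inhibitors, Serpine2, protease nexin, was higher at 14 days by 3.03, while Pzp, of the alpha-2-macroglobulin family, was lower at 72 hours, with a change of −3.90 and a mean of 1.65 FPKM in IRI72h and 24.1 FPKM in SHAM24h.

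In the list of plasminogen activators, receptors and related genes, Anxa2 was at a mean of 222 FPKM in IRI24h and 19.6 FPKM in SHAM24h (change 3.50). Lrp1, the clearance receptor for activator complexes, was higher at 14 days by 2.53. Clec3b, tetranectin, was higher in IRI6mN than in SHAM12m by 4.05, across depth sets. Among anticoagulants, Serpina10, the protein Z-dependent inhibitor, averaged 35.0 FPKM in IRI7d and 0.254 FPKM in SHAM24h (change 6.60, limma adjusted p = 7.74e-09). Hs3st1, which makes the antithrombin-binding heparan sulfate, was higher at 7 days by 2.65 and Entpd1, which removes extracellular ADP and ATP, at 72 hours by 2.35. Of the clotting factor list, the 3 genes of largest change past the test were Masp1, higher at 14 days (2.54 FPKM in IRI14d and 0.201 FPKM in SHAM24h), F7 at 7 days (1.01 FPKM in IRI7d and 0.0166 FPKM in SHAM24h) and Kng1 at 7 days (2.03 FPKM in IRI7d and 0.252 FPKM in SHAM24h). Of the other thrombin and protease-activated receptor genes, F2rl1 (PAR2) was higher at 72 hours by 1.84 and F2rl3 (PAR4) at 7 days by 1.53, while Gna12, a G protein subunit, was lower at 72 hours (−0.74). Every SHAM24h kidney was below the filter of 1 FPKM in Serpina10, Masp1, F7, Kng1 and F2rl3. Clec3b was likewise below it in SHAM12m. These sham groups thus did not bring those genes past the filter. F7 was close to it in IRI7d as well, at 0.330 to 1.43 FPKM. Serpina10, F7, Kng1 and F2rl3 are in the 7-day count of higher genes. Plg, the gene of plasminogen itself, was among the 14 listed genes below the filter.

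Marker genes of several cell types also differed between the groups, and their course was not compared with that of the 9 genes by a test. The 12 macrophage and monocyte markers summed to a mean of 131 FPKM in IRI24h, 418 FPKM in IRI72h and 1259 FPKM in IRI7d, against 56.0 FPKM in SHAM24h (50.6 to 61.5 FPKM), and 7, 9 and 11 of the 12 were higher. Their sum was 858 to 1784 FPKM in IRI14d, which overlapped IRI7d at 1081 to 1353 FPKM. F13a1 had its highest mean in IRI72h, at 3.35 to 12.7 FPKM, which overlapped IRI7d at 2.78 to 5.71 FPKM. IRI7d against IRI72h did not pass (−0.64, adjusted p = 0.435, limma). Of the macrophage and monocyte markers only Cd163 had its highest mean in IRI72h, at 1.58 FPKM. All the others had theirs in IRI7d or later. The 12 endothelial markers summed to 268 to 292 FPKM in IRI24h, against 137 to 178 FPKM in SHAM24h, with 10 of 12 higher at 24 hours and 0 of 12 at 12 months. The 8 neutrophil markers summed to a mean of 99.5 FPKM in IRI48h, against 4.58 FPKM in SHAM24h, and the 9 fibroblast markers to 833 FPKM, against 86.7 FPKM. The 8 platelet markers summed to 9.17 to 22.4 FPKM in IRI72h, against 3.17 to 3.74 FPKM in SHAM24h, and 2 of them, Pf4 and Itga2b, were above the filter. Pf4 averaged 14.5 FPKM in IRI72h and 0.448 FPKM in SHAM24h, and Ppbp averaged 0.535 FPKM in IRI72h and 0.0366 FPKM in SHAM24h, while Itga2b averaged 1.55 FPKM in IRI72h and 2.77 FPKM in SHAM24h. Gp1ba, a defining platelet receptor, averaged at most 0.003 FPKM in any group. In IRI6mN, 5 of 5 adipocyte and 5 of 5 urothelium markers tested and 7 of 7 lymphocyte markers were also higher than in SHAM12m. The adipocyte sum of IRI6mN, 3.32 to 58.0 FPKM, lay within that of NORM3m, at 1.39 to 128 FPKM. It thus did not set IRI6mN apart from kidneys without surgery. The urothelium sum, at 24.7 to 61.1 FPKM in IRI6mN, reached 31.5 FPKM in NORM15m. The lymphocyte sum, at 8.98 to 75.7 FPKM in IRI6mN, was at most 7.51 FPKM in kidneys without surgery. The part of these cells in the changes of the 9 genes was not tested.

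**Figure D4:**
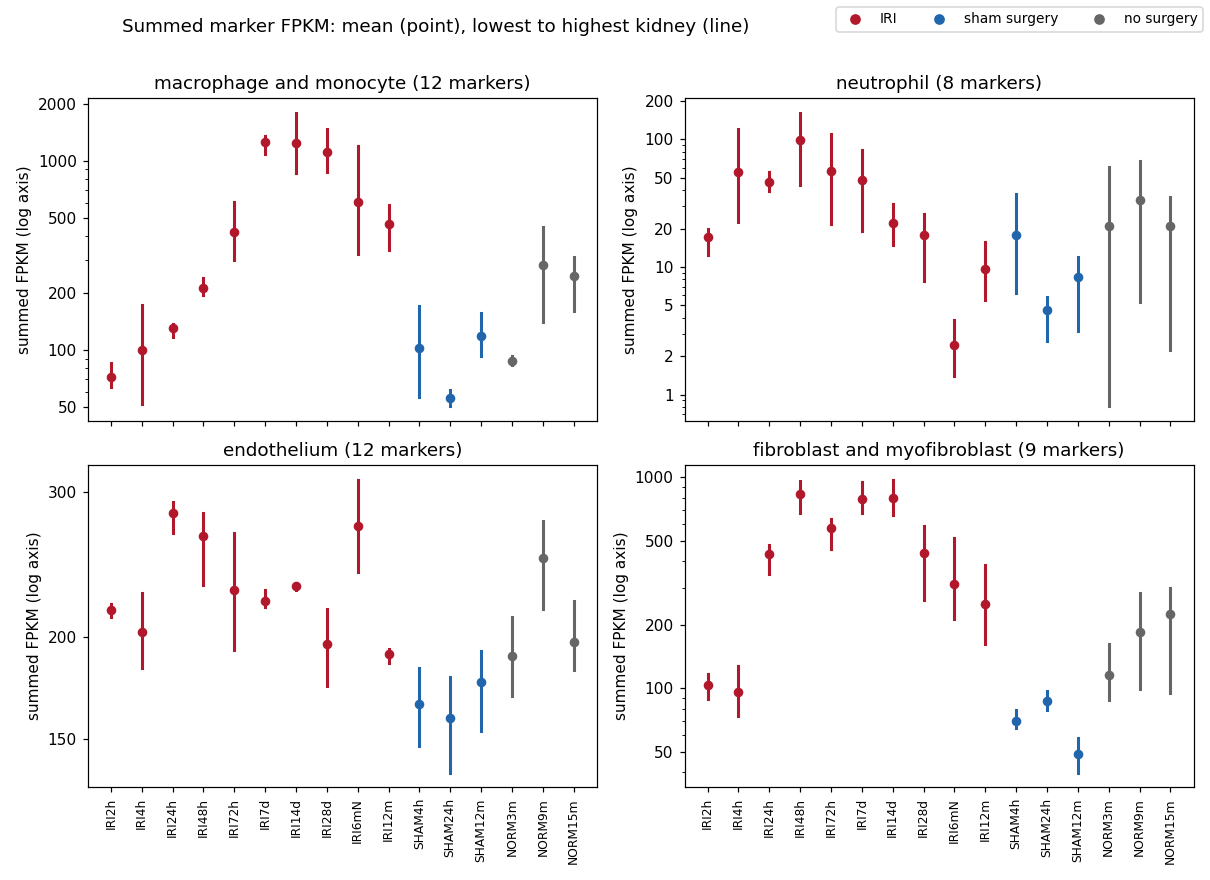
Summed FPKM (log axis) of marker genes of macrophages and monocytes, neutrophils, endothelium and fibroblasts by group, with the mean as a point and the lowest to the highest kidney as a line. Macrophage markers averaged 1259 FPKM in IRI7d and 56.0 FPKM in SHAM24h, while endothelial markers averaged 282 FPKM in IRI24h and 159 FPKM in SHAM24h.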

How the data were processed

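The authors prepared poly(A) libraries with the TruSeq kit v2, aligned the paired reads to mm10 with STAR 2.5.0b and the annotation GENCODE M4 (GRCm38.p3), removed duplicates and counted reads per gene. The deposited table holds the authors' FPKM derived from those counts, 1 value for each of 43309 genes and 49 libraries; the tool for that step is not given in the sources used here. Removal of duplicates can lower high values. FPKM were checked against whole reads with lengths of 23069 genes in GENCODE M21: in each library at least 93.1% of low values lay within 0.1 of a whole read, which gave the depths.

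log2(FPKM + 0.1) was fitted with limma 3.58.1 in R 4.3.3 (a mean per group, eBayes with trend and robust) over the 14895 genes that reached 1 FPKM in 3 or more libraries. Each contrast had its own Benjamini-Hochberg adjustment over these genes, with a threshold of 0.05. All 9 genes passed the filter, F13a1 in 16 libraries and the others in at least 43. The 16 libraries of F13a1 were all of IRI kidneys, and its highest control value was 0.544 FPKM. It thus entered the test only through groups where it was high. The reads of F13a1 were recovered with a fitted length of 3910 bases. The labels do not say whether replicates were separate animals beyond calling them biological replicates. Python 3.11.15 with pandas 2.3.3 and matplotlib 3.10.9 was used for tables and plots, and the test was tried on simulated data.

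The 9 genes and all lists were chosen with earlier results of these data known. All 9 genes were named, with the 3 genes of largest change past the test in each list, and the 3 protein-coding genes most like each member, of which the closest are given. A result of 1 listed gene is not reported here. Coordinates are GRCm38. Alternatives were quantile normalization, no filter, other pseudocounts, limma without trend and robust, other controls, a fit of only the groups compared, a replicate block and leaving out each library.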

Additional observations from a re-analysis of the deposited data

Results flagged for a closer look

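In IRI6mN, the group of 4 kidneys, replicate 4 stood apart in Thbd, at 19.9 FPKM beside 13.5 to 14.5 FPKM, and in F13a1, at 1.00 FPKM beside 0.609 to 0.656 FPKM. The gap to the next kidney was 0.837 of the whole range in Thbd and 0.880 in F13a1, above Dixon's 95% critical value for 4 samples. Such a value is reached by chance in about 1 in 20 groups, and 9 genes were looked at. Replicate 4 was the highest of the 4 kidneys in all 9 genes, and values of the same kidney are not independent.

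The IRI effect differed between times by a test of the difference itself (limma, adjusted p under 0.05). From 4 to 24 hours the log2 effect was larger by 1.34 in Plaur, 1.47 in Thbd, 0.93 in Procr, 2.47 in F2r and 2.66 in F13a1. Part of this was the lower SHAM24h level, with SHAM24h against SHAM4h at −0.94 in Plaur, −1.12 in Thbd and −1.24 in F2r, and IRI24h against IRI4h was not past the test in Plaur (0.40) or Thbd (0.35). From 24 hours to 12 months the difference was −0.80 in Plau, −3.36 in Plaur, −1.42 in Plat, −1.36 in F3, −2.04 in Thbd, −1.55 in Procr and −2.06 in F2r. From 4 hours to 12 months it was −2.01 in Plaur and −2.15 in F3. The 12-month kidneys were sequenced to a higher depth than those at 4 and 24 hours, with IRI and sham at the same depth within each time.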

How the results depend on the processing

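Of 59 calls over 90 gene and time pairs, 15 were lost under at least 1 alternative, 7 of them on leaving out a library, and 0 turned direction. The number of the 9 genes past the test moved by over 1.5 times at 3 times. Except where it is given, the share of all genes called was not counted under the alternatives. At 2 hours (0 genes) it was 3 of the 9 genes with all 9 sham kidneys and 3 with kidneys without surgery as the control. In IRI6mN (4 genes) it was 7 with all 9 sham kidneys, with Plau lower among them. With kidneys without surgery it was 2, Procr higher (6.25% of genes higher) and Plau lower (2.07% of genes lower). In IRI12m (2 genes, Procr and F13a1) it was 4 with all 9 sham kidneys, with Plau lower among them. With kidneys without surgery it was 1, Plau lower (10.5% of genes lower), and the calls of Procr and F13a1 were both lost. With a pseudocount of 1 it was 1, Procr. On leaving out each library in turn, it was 0 to 1 at 2 hours, 4 to 4 at 4 hours, 8 to 8 at 24 hours, 48 hours and 7 days, 7 to 8 at 72 hours and 14 days, 7 to 9 at 28 days, 3 to 4 in IRI6mN and 1 to 2 in IRI12m. A pseudocount of 1 ended the F13a1 calls at 28 days, in IRI6mN and in IRI12m. The other settings kept 752 of 810 member results on the same side of the threshold and in the same direction, with 19 weaker, 24 stronger and 15 reversed, and leaving out a library kept 524 of 549.

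Values that changed sign were not called in either fit. With all 9 sham kidneys these were Plat (0.18) and F2r (0.42) at 2 hours and Plau at 48 hours (0.21) and 14 days (0.27). With kidneys without surgery they were Plat (0.34) and F2r (0.21) at 2 hours, Tfpi at 4 hours (−0.20), Plau at 48 hours (0.016) and 14 days (0.073), F2r in IRI6mN (−0.14), and Plaur (−0.42), F2r (−0.10) and Tfpi (−0.01) in IRI12m. With quantile normalization they were Plau at 72 hours (−0.004) and Tfpi in IRI12m (−0.024). On leaving out each kidney in turn, the change was −0.405 to 0.186 for F2r and −0.358 to 0.023 for Tfpi at 2 hours, −0.149 to 0.608 for F13a1 at 4 hours, and −0.25 to 0.113 at 48 hours and −0.274 to 0.051 at 14 days for Plau. Plau was called lower in IRI6mN (−0.49) and IRI12m (−0.88) with all 9 sham kidneys. The causes were not tested.

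Replicate numbers did not pair the kidneys: correlations of deviations between same-numbered kidneys were −0.18 to 0.17, and in 0 of 10 comparisons was every one over 0.1. A replicate block kept 89 of 90 member results and ended the Plat call in IRI6mN (0.52, limma adjusted p = 0.116), for 3 genes in place of 4. Depth limits F13a1, which had under 25 reads in 14 libraries.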
